A study of Mus musculus with 6 samples.

Results

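The IFIT genes, interferon-induced genes whose proteins carry tetratricopeptide repeats, were described here in fibroadipogenic progenitors (FAPs), mesenchymal cells of skeletal muscle that can become fibroblasts or adipocytes. The members were Ifit1, Ifit2, Ifit3 and I830012O16Rik, the older symbol of Ifit3b, which are 4 of the 16894 genes listed. They were chosen by their CPM values in these same libraries, which differed between senescent and control FAPs, so their levels and differences are given as a description and without a test. All FAPs came from quadriceps, gastrocnemius and tibialis anterior muscle of male and female C57BL/6 mice aged 3 to 6 months, by magnetic selection of CD45-, CD31- and α7-integrin-negative, SCA-1+ cells, and were grown with bFGF in low oxygen. The 3 senescent FAP libraries came from cells given 20 μM etoposide, a topoisomerase inhibitor that breaks DNA, for 48 h and then 5 days in normal medium. The 3 control FAP libraries came from non-senescent cells, and neither a vehicle nor the time in culture of the controls is stated. Nothing in the labels says whether the replicates were separate cultures or mice, so every p-value measures only the spread between these libraries, which may be technical. The drug and the senescent state cannot be told apart in this design, nor can more cells expressing a gene be told apart from more RNA per cell.

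IFIT proteins act inside the cell against viruses. Type I and type III interferons signal through receptors and the kinases JAK1 and TYK2 to a complex of STAT factors and IRF9, which binds the interferon-stimulated response element (ISRE) in the promoters of its target genes, and IRF3 can act on the same element without interferon. IFIT1 binds capped RNA that lacks ribose methylation next to the cap and keeps it from being translated, IFIT3 forms complexes with other IFIT proteins, and IFIT1 and IFIT2 can bind the translation initiation factor eIF3.

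The 200 bases before the RefSeq transcription start (build GRCm38.p6, plus strand, printed 5′ to 3′) are shown for the 4 members, to mark any ISRE core in them. Whether the interferon response acted on this DNA was not tested. Capitals mark each ISRE core, searched on both strands as GAAA, 2 bases of any kind and GAAA again. All cores shown read on the minus strand, so they are printed as their reverse complement. The stretches lie at chr19:34640689-34640888 for Ifit1, chr19:34583329-34583528 for Ifit3, chr19:34607757-34607956 for Ifit3b and chr19:34550494-34550693 for the first of the 2 Ifit2 starts.
Ifit1: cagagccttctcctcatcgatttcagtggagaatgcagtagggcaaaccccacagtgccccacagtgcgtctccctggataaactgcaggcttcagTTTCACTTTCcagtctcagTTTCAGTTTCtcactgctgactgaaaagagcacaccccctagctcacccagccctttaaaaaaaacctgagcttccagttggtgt
Ifit3: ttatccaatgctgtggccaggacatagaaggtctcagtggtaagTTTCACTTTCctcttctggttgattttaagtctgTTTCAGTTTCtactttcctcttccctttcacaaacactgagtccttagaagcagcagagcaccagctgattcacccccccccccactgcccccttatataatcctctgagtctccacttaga
Ifit3b: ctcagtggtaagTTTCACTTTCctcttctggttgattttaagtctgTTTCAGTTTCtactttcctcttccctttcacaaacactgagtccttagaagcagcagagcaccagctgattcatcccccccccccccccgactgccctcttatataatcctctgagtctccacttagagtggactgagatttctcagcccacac
Ifit2: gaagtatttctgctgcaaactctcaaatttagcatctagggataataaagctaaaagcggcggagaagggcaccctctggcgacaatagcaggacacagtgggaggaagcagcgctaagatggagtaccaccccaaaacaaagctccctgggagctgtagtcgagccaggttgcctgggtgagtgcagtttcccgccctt

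Windows of 300 bases, from 250 before to 50 after the start, held 2 ISRE cores each for Ifit1, Ifit3 and Ifit3b. Of all 32851 RefSeq windows of that length, 3.44% held at least 1 core and 0.225% held at least 2. The cores were the same pair of sequences in all 3 genes, GAAAGTGAAA farther from the start and GAAACTGAAA nearer to it. Their starts lay 19 bases apart in Ifit1, against 34 bases in both Ifit3 and Ifit3b. The windows of Ifit3 and Ifit3b were identical over a stretch of 169 bases that held both cores, and 94.2% identical over 274 aligned columns. Neither of the 2 Ifit2 windows held an ISRE core. The first held 1 match to the GAS element (TTCNNNGAA), a site for STAT dimers, which was found in 8.30% of all windows. The sequence TATAAA, held by 13.6% of all windows, was in none of the members' windows, and no match to one motif overlapped a match to another. The lack of a match says only that these letters are not in this window.

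**Figure D1:**
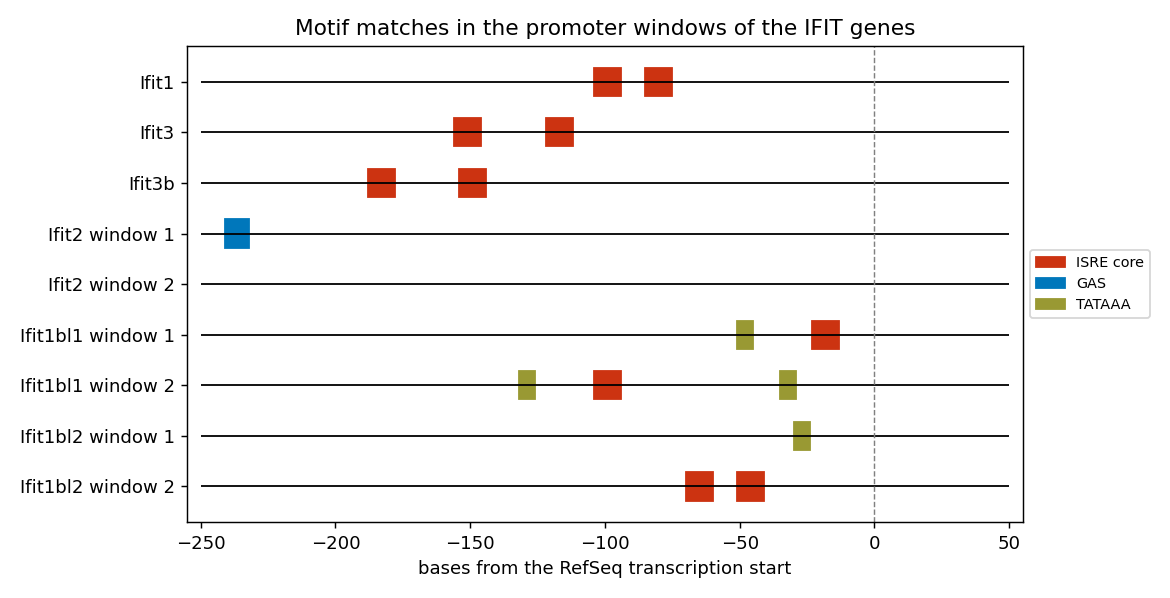
Matches to the ISRE core (red), the GAS element (blue) and TATAAA (olive) on either strand of each RefSeq promoter window of the 6 IFIT genes, with position in bases from the transcription start on the x axis. Ifit1, Ifit3 and Ifit3b hold 2 ISRE cores each, and neither Ifit2 window holds one.

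Reads on genes ranged from 41412179 to 59912520 per library, so 1 read was worth 0.0167 to 0.0225 CPM (read counts relative to library size, after the authors' scaling between libraries). Differences are given as log2 fold changes on the log2(CPM + 0.5) scale, senescent minus control, which understates the change of genes with low values. Of the 14776 genes tested, 21.8% were higher and 24.3% lower in senescent FAPs (3218 and 3592 genes, limma, Benjamini-Hochberg adjusted p under 0.05). The rule of an unadjusted p under 0.01 with a log2 fold change past 1 called 6.93% higher and 3.9% lower. Division by library totals in place of the deposited scaling moved the median log2 fold change of all genes from −0.03 to 0.17 and gave 5056 genes higher and 1933 lower. Without senescent replicate 2 the counts were 2130 and 2416.

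Ifit1 and Ifit3 were barely expressed in control FAPs and were among the genes with the largest increase in senescent FAPs. Ifit1 measured 1.50, 1.71 and 1.63 CPM in control replicates 1, 2 and 3 and 37.7, 43.7 and 46.5 CPM in senescent replicates 1, 2 and 3. The lowest senescent library thus lay far above the highest control library. The means were 1.61 ± 0.109 and 42.6 ± 4.52 CPM (SD, n = 3 each), a 26.4-fold difference, with a log2 fold change of 4.35 (SE 0.13). Ifit3 measured 1.63, 1.73 and 1.56 CPM in control FAPs and 40.7, 44.8 and 53.3 CPM in senescent FAPs. Its means were 1.64 ± 0.0849 and 46.3 ± 6.45 CPM, a 28.2-fold difference, with a log2 fold change of 4.44 (SE 0.13). By log2 fold change Ifit3 ranked 4 and Ifit1 ranked 6 of the 14776 genes, of which only 7 had a value above 4. These ranks belong to this scale, which holds down genes with lower control values. Ces2e, with means of 0.0875 and 5.23 CPM, had a larger ratio of means but a log2 fold change of 3.29. For both genes senescent replicate 1 was the lowest senescent library and replicate 3 the highest.

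Ifit3b, a close copy of Ifit3, was the member with the lowest values in control FAPs. It measured 0.379, 0.399 and 0.377 CPM in control FAPs, from 17, 21 and 21 reads, and 8.76, 8.13 and 8.06 CPM in senescent FAPs. Here senescent replicate 1 had the highest value rather than the lowest. The Poisson counting intervals of senescent replicates 1, 2 and 3 overlapped, however (7.96 to 9.61, 7.42 to 8.89 and 7.24 to 8.93 CPM). The means of 0.385 ± 0.0123 and 8.31 ± 0.385 CPM differed 21.6-fold. The log2 fold change was 3.31 (SE 0.13), rank 22, and it depended on how low values were handled, from 2.75 with a pseudocount of 1 to 4.47 with DESeq2 on the recovered reads. Ifit3b passed the filter of 0.5 CPM only through its senescent libraries, while the other 3 members passed it in every library. That way of passing already fixes that the groups of Ifit3b did not overlap.

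Ifit2 differed from the other members in both groups: it was the most abundant IFIT gene in control FAPs and had the smallest increase. It measured 4.87, 6.48 and 6.14 CPM in control FAPs and 16.4, 16.5 and 21.2 CPM in senescent FAPs. Even so, its lowest senescent library lay above its highest control library. The means were 5.83 ± 0.853 and 18.0 ± 2.75 CPM, a 3.09-fold difference, with a log2 fold change of 1.55 (SE 0.16) and rank 381. In all 4 members every senescent library lay above every control library, a pattern that 26.5% of all genes tested also had and that the choice of members used. Differences between libraries of equal replicate number spanned 1.28 to 1.71 for Ifit2, 3.26 to 3.40 for Ifit3b, 4.26 to 4.46 for Ifit1 and 4.27 to 4.71 for Ifit3.

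**Figure D2:**
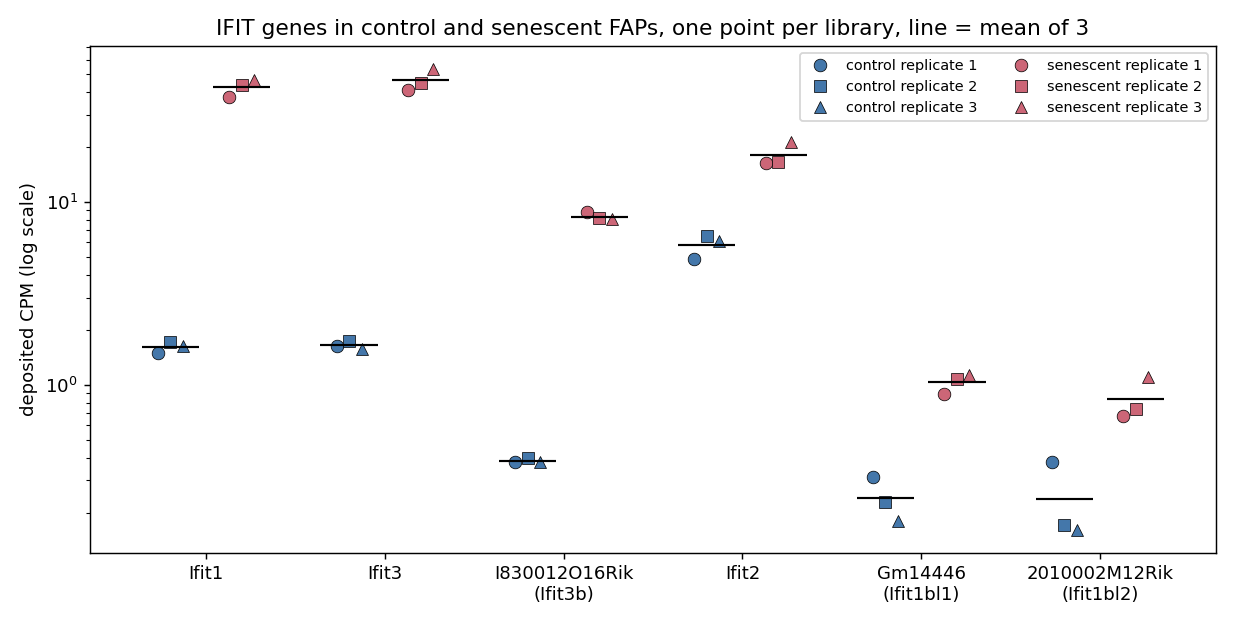
Deposited CPM (log scale) of the 6 IFIT genes in each control (blue) and senescent (red) FAP library, with the replicate number as the marker shape and the mean of 3 libraries as a line. Ifit1, Ifit3 and Ifit3b stand 21.6-fold to 28.2-fold higher in senescent FAPs and Ifit2 3.09-fold higher.

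The makeup of IFIT mRNA therefore differed between the groups. The 4 members together received 375 to 543 reads in control libraries and 5212 to 6766 reads in senescent libraries, or 8.37 to 10.3 and 103 to 129 CPM. Ifit2 took 61.4% ± 2.82 of these reads in control FAPs (58.1% to 63.2%) and 15.6% ± 0.952 in senescent FAPs (14.6% to 16.4%). The share of Ifit1 was 17.1% ± 0.686 in control and 37.0% ± 1.41 in senescent FAPs, and that of Ifit3 was 17.4% ± 1.79 and 40.1% ± 1.08. Ifit3b took 4.09% ± 0.380 and 7.29% ± 1.12. The ratio of Ifit2 to Ifit3 reads was 3.55 ± 0.501 in control and 0.390 ± 0.0191 in senescent FAPs. Ifit1 and Ifit3 kept close to even numbers of reads, with a ratio of 0.984 ± 0.0642 in control and 0.925 ± 0.0516 in senescent FAPs.

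**Figure D3:**
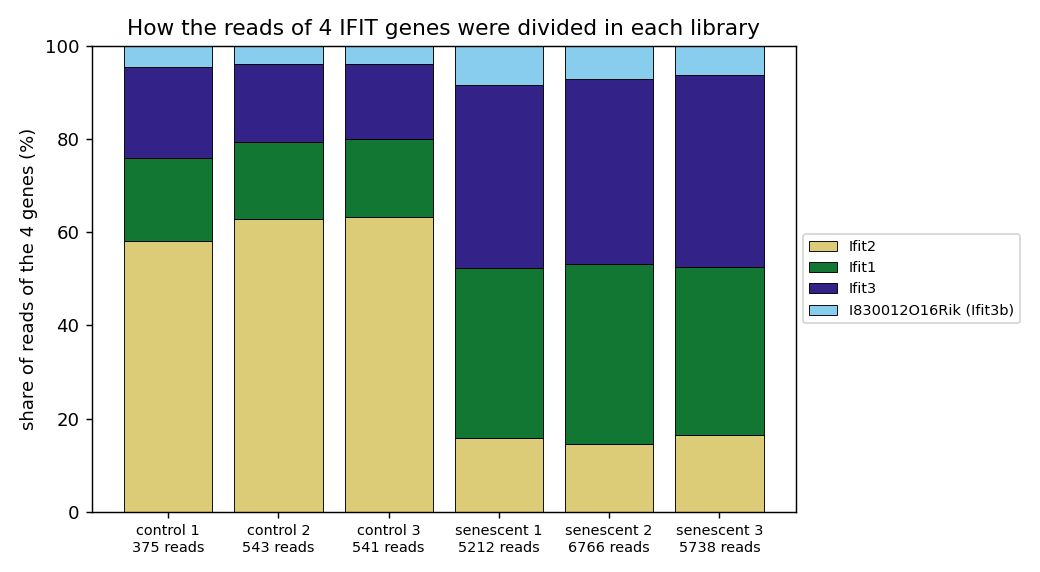
Share of the reads of 4 IFIT genes that fell on each gene (y axis, percent), 1 bar per library with its number of reads. Ifit2 (yellow) takes 58.1% to 63.2% of the reads in control libraries, against 14.6% to 16.4% in the senescent ones.

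Levels between genes were compared as CPM per kilobase of annotated exon (GENCODE M21, which may differ from the authors' annotation). In control FAPs the order was Ifit2 at 1.48 ± 0.217, Ifit3 at 0.940 ± 0.0487, Ifit1 at 0.607 ± 0.0412 and Ifit3b at 0.193 ± 0.00613, and no neighbours in this order overlapped. In senescent FAPs the order was Ifit3 at 26.5 ± 3.70, Ifit1 at 16.1 ± 1.70, Ifit2 at 4.59 ± 0.701 and Ifit3b at 4.16 ± 0.192 CPM per kilobase. Ifit2 (4.18 to 5.40) and Ifit3b (4.03 to 4.38) overlapped there.

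Ifit3 and Ifit3b share so much sequence that reads can be split between them by the counting method, which is not stated. Their transcripts were 97.8% identical over 1700 aligned columns. Of all 50-base windows, 51.2% of those in Ifit3 and 44.5% of those in Ifit3b occurred unchanged in the other gene, and for 100-base windows the shares were 31.7% and 27.4%. Of the reads on this pair, Ifit3b received 18.9%, 18.8% and 19.4% in control replicates 1, 2 and 3, where the exact binomial 95% intervals ran from 11.4% to 28.5%. In senescent replicates 1, 2 and 3 it received 17.7%, 15.4% and 13.1%, with intervals from 11.9% to 19.3%. These intervals cover counting error only. The mean share differed by −3.63 percentage points in senescent against control FAPs, and by −1.17, −3.40 and −6.32 points between libraries of replicate number 1, 2 and 3. All 3 control shares lay above all 3 senescent shares, although the counting intervals of the groups overlapped, and the difference was not tested. Their separate levels are therefore uncertain, while Ifit1 and Ifit2 shared no 50-base window with Ifit3 or Ifit3b.

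Besides the members, 2 more IFIT genes were listed, Gm14446 (Ifit1bl1) and 2010002M12Rik (Ifit1bl2), both relatives of Ifit1. Both had few reads in every library, and both were higher in senescent FAPs. Gm14446 measured 0.312, 0.228 and 0.180 CPM in control FAPs and 0.894, 1.07 and 1.13 CPM in senescent FAPs, from 10 to 14 and 45 to 64 reads. Its log2 fold change was 1.05 (SE 0.16). 2010002M12Rik measured 0.379, 0.171 and 0.162 CPM in control and 0.675, 0.736 and 1.10 CPM in senescent FAPs, with a log2 fold change of 0.86 (SE 0.20). Both passed the filter only through the senescent libraries, where they are high, so no test is given for them. Passing in this way already fixes that the groups did not overlap for either gene. Both share some 50-base windows with Ifit1 (0.744% of those in Ifit1bl1 and 5.55% of those in Ifit1bl2). They also share some with each other (6.51% of those in Ifit1bl1 and 4.22% of those in Ifit1bl2). Their low counts are therefore uncertain. Of the promoter windows, each of the 2 of Ifit1bl1 held 1 ISRE core, GAAAATGAAA. The second window of Ifit1bl2 held the same 2 cores as Ifit1, because the genes run in opposite directions from starts 146 bases apart and their windows share 245 bases.

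All 6 IFIT genes lie within 99.3 kb on chromosome 19 (GRCm38, GENCODE M21). Ifit2 (34550694 to 34576419), Ifit3 (34583531 to 34588731), Ifit3b (34607970 to 34613401) and Ifit1 (34640871 to 34650009) are on the plus strand. Ifit1bl1 (34592891 to 34601956) and Ifit1bl2 (34617049 to 34640743) are on the minus strand. Of 9 neighbours tested, 3 rose and 2 fell (33.3% and 22.2%, near the 21.8% and 24.3% of all genes), with a median log2 fold change of −0.07, which was 0.14 with library totals. Fas, a death receptor gene, rose by 1.92 (SE 0.20, limma adjusted p = 0.000408), and Ch25h, whose enzyme makes an antiviral oxysterol, rose by 1.06 (SE 0.20, adjusted p = 0.00439). Lipa, the lysosomal lipase gene next to Ifit2, rose by 0.30 (SE 0.10, adjusted p = 0.0421), a call that was lost without the variance trend (adjusted p = 0.0746) and without control replicate 1 (adjusted p = 0.117), control replicate 3 (0.0635), senescent replicate 2 (0.131) or senescent replicate 3 (0.136). Acta2, smooth muscle actin, had a log2 fold change of −1.49 (SE 0.23, adjusted p = 0.00203) and Kif20b, a mitotic kinesin, one of −2.54 (SE 0.28, adjusted p = 5.52e-04). The values of Stambpl1 (−0.07, adjusted p = 0.688), Pank1 (−0.19, 0.300), Htr7 (0.46, 0.152) and Rpp30 (−0.20, 0.347) did not pass, and Slc16a12 was below the filter.

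**Figure D4:**
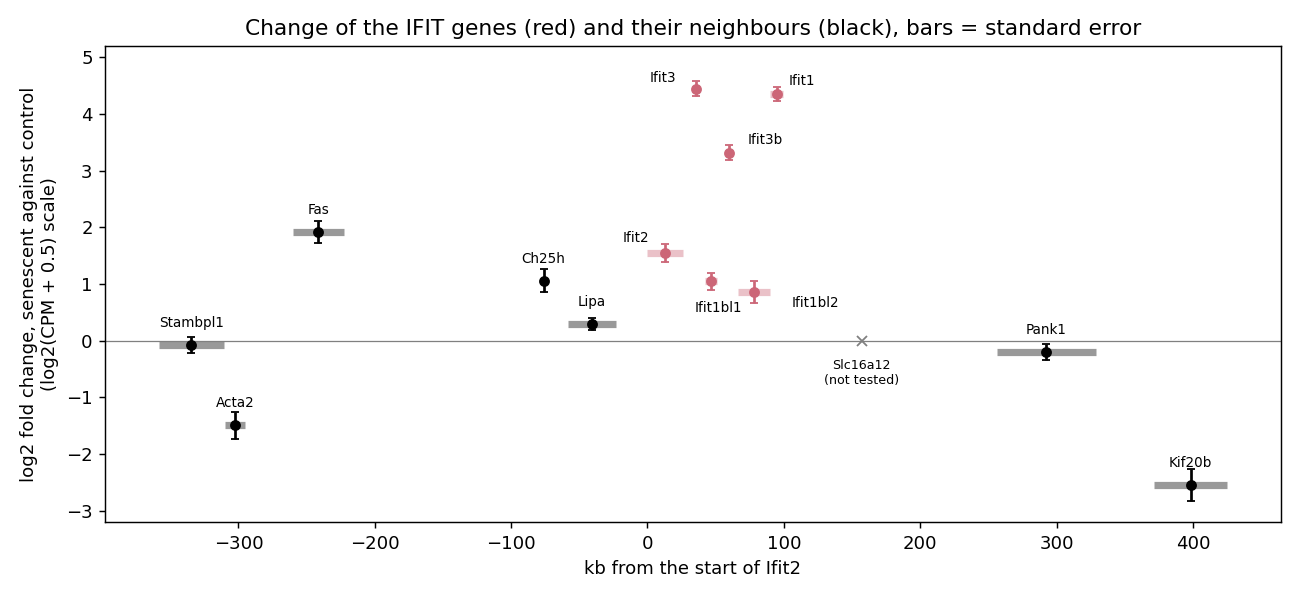
Log2 fold change (y axis, senescent against control FAPs, ± SE) of the IFIT genes (red) and nearby genes (black) by distance from the start of Ifit2 in kb, with horizontal bars for gene length. The IFIT genes range from 0.86 to 4.44, while the neighbours shown range from −2.54 (Kif20b) to 1.92 (Fas).

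Upstream of the IFIT genes, 4 of 8 interferon receptor and kinase genes passed the test, with small changes, and Stat2 and Irf9, whose proteins bind the ISRE in 1 complex, both rose. The interferon genes themselves were not analysed here. Of these 8 genes, 3 rose and 1 fell (37.5% and 12.5%, against 21.8% and 24.3% of all genes), with a median of 0.20 against −0.03 for all genes, and with library totals 5 rose and none fell. Ifngr1, a chain of the receptor for interferon gamma, rose from 39.0 ± 0.373 to 51.1 ± 0.518 CPM (log2 fold change 0.39, limma adjusted p = 0.00308). Ifnar1, a chain of the type I receptor, had a log2 fold change of −0.36 (adjusted p = 0.00812), a fall that did not pass with library totals (−0.15, adjusted p = 0.141). Il10rb, the chain that the type III receptor shares with interleukin 10, rose by 0.35 (adjusted p = 0.0194), and the call was lost without senescent replicate 2 (adjusted p = 0.0624) or 3 (0.0664). Without either of those libraries 1 receptor or kinase gene was called higher, and without control replicate 2 or with the replicate number as a block 2 were called lower.

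Among 9 STAT and IRF factors, 4 rose and 1 fell (44.4% and 11.1%, against 21.8% and 24.3% of all genes, median 0.35). The 4 that rose all belong to the type I response. Stat2 rose by 1.34 (limma adjusted p = 6.60e-04) and Irf9, the partner that binds DNA and also named after its values were seen, by 1.22 (adjusted p = 0.00206). Irf7, which amplifies interferon production, rose from 2.46 ± 0.965 to 27.6 ± 5.86 CPM (log2 fold change 3.28, adjusted p = 1.98e-04). Irf5, named after its values were seen, had a log2 fold change of −0.86 (adjusted p = 0.0435), and this call was lost when control replicate 1 or 3 or senescent replicate 2 or 3 was left out (adjusted p = 0.0619 to 0.144), with library totals (0.0952), without the variance trend (0.0596) and with edgeR (0.0591), while without control replicate 2 the number lower was 2.

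Of 16 genes tested for sensors of viral or misplaced nucleic acid and their adaptors, 9 rose and 2 fell, with a median of 0.86. These shares were 56.2% and 12.5%, against 21.8% and 24.3% of all genes. Without control replicate 2 the number that fell was 4. Zbp1, a sensor of Z-form nucleic acid, rose by 3.40 (limma adjusted p = 4.61e-05), from 1.53 ± 0.286 to 20.9 ± 2.34 CPM. Ifi203, of the AIM2-like receptor family, rose by 2.58 (adjusted p = 1.10e-04), and Ddx58, which encodes the RNA sensor RIG-I, by 1.42 (adjusted p = 1.31e-04). The 2 that fell were the DNA sensor gene Mb21d1, which encodes cGAS, at −0.84 (adjusted p = 0.00921), and its adaptor Tmem173, which encodes STING, at −0.67 (adjusted p = 0.00517). These 2 were named after their values were seen.

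Most other antiviral interferon-stimulated genes were also higher in senescent FAPs. Of 44 tested, 41 rose and 1 fell (93.2% and 2.27%, against 21.8% and 24.3% of all genes). Their median log2 fold change was 1.79. The list was written with results of these libraries known, so its direction is not independent evidence. On this list 7 genes passed the filter only through senescent libraries, and of the other 37 genes 34 rose and 1 fell, with a median of 1.70. Isg15, a ubiquitin-like modifier, measured 3.35, 3.29 and 4.47 CPM in control and 44.5, 51.7 and 54.0 CPM in senescent FAPs, with a difference in log2 of 3.60 (limma adjusted p = 3.32e-05). Oasl2, of the oligoadenylate synthetase family, rose by 3.60 (adjusted p = 2.94e-05) and Rtp4 by 3.00 (adjusted p = 4.55e-05). The gene that fell was Isg20, an exonuclease gene named after its values were seen, at −0.57 (adjusted p = 0.0441), and the call was lost with library totals (adjusted p = 0.145), with edgeR (0.0540), without the variance trend (0.0515), or without control replicate 1 or 3 or senescent replicate 2 or 3 (0.122 to 0.144). By log2 fold change Ifit1 (4.35) and Ifit3 (4.44) lay above every tested gene on this list. On the same scale Ifit3b (3.31) lay below only Oasl2 and Isg15, and Ifit2 (1.55) lay below the median. This order belongs to the scale used, which holds down genes with lower control values. By ratio of mean CPM, Oas2, Oas3, Mx1, Mx2 and Rsad2 stood above Ifit1, Ifit3 and Ifit3b, and the other tested genes stood below them. The control means of Oas2, Oas3, Mx1, Mx2 and Rsad2 were 0.0223 to 0.103 CPM, so their ratios rest on few control reads.

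Of 8 feedback regulators, 1 rose and 3 fell (12.5% and 37.5%, against 21.8% and 24.3% of all genes, median −0.35). With library totals 2 rose. Usp18, which removes ISG15 from proteins and blocks the type I receptor, rose by 3.54 (limma adjusted p = 1.43e-04), from 1.28 ± 0.596 to 19.6 ± 2.31 CPM. Socs3, an inhibitor of JAK kinases, had a log2 fold change of −1.12 (adjusted p = 0.00222) and Ptpn1, a phosphatase that acts on JAK2 and TYK2, one of −0.75 (adjusted p = 0.00241).

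**Figure D5:**
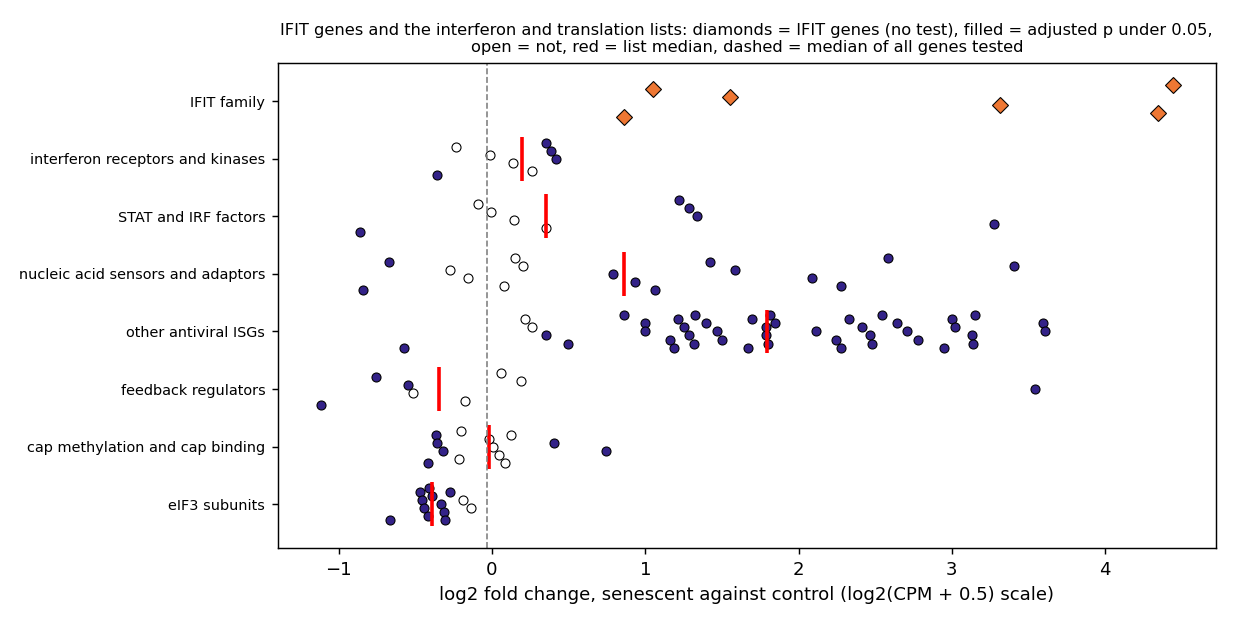
Log2 fold change (x axis, senescent against control FAPs) of each tested gene of the IFIT family and 7 lists, with filled circles for genes at an adjusted p under 0.05, open circles for the rest, diamonds for the 6 IFIT genes (no test given), red lines for list medians and a dashed line for the median of all genes. Other antiviral interferon-stimulated genes centre on 1.79 and eIF3 subunits on −0.39.

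Genes were also read for the machinery that IFIT proteins meet on capped RNA and on the ribosome. Of 13 genes of cap methylation and cap binding, 2 rose and 4 fell (15.4% and 30.8%, against 21.8% and 24.3% of all genes, median −0.02), and with library totals 4 rose and none fell. Cmtr1, named outside the rule for its role, is the methyltransferase that marks the first transcribed base of capped RNA and so hides it from IFIT1, and had a log2 fold change of 0.41 (limma adjusted p = 0.0134), which did not pass without senescent replicate 2 (adjusted p = 0.0501) or 3 (0.0514). Eif4e3, a cap-binding protein gene, rose by 0.74 (adjusted p = 0.00345) and had the smallest p on this list. Ncbp1 of the nuclear cap-binding complex (−0.37, adjusted p = 0.00829) and Eif4e2 (−0.32, adjusted p = 0.00839) fell, but not with library totals (−0.16, adjusted p = 0.170, and −0.11, adjusted p = 0.229). Of 13 eIF3 subunit genes, 11 fell (84.6%, against 24.3% of all genes) and none rose (against 21.8%), with a median of −0.39. With library totals 4 fell and 2 of the 13 had values above 0, although the list's median stayed 0.35 below that of all genes, against 0.36 with the deposited scaling. Eif3c, the subunit that IFIT1 and IFIT2 of the mouse can bind, measured 474, 382 and 464 CPM in control and 265, 277 and 287 CPM in senescent FAPs (log2 fold change −0.66, adjusted p = 0.0018). Eif3i (−0.44, adjusted p = 0.00228) and Eif3d (−0.42, adjusted p = 0.00252) also fell.

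The genes whose profile over the 6 libraries lay nearest to the mean of the 4 members, by Euclidean distance of log2(CPM + 0.5) centred on the control mean, were Oasl2 (distance 0.352), Serpine2 (0.385), Ces2e (0.396), Zbp1 (0.431) and Isg15 (0.469). Serpine2, a secreted serine protease inhibitor gene, measured 69.9, 79.5 and 87.2 CPM in control and 725, 689 and 805 CPM in senescent FAPs. Ces2e, a carboxylesterase gene, measured 0.112, 0.133 and 0.0180 CPM in control and 5.42, 5.24 and 5.04 CPM in senescent FAPs. With a pseudocount of 1, 3 of these 5 genes were again among the nearest 5. The members themselves lay 0.313 (Ifit3b), 1.62 (Ifit1), 1.79 (Ifit3) and 3.24 (Ifit2) from their mean, so Ifit1, Ifit3 and Ifit2 were each farther from it than those 5 genes, and Ifit3b was the only member close to it. With Pearson's correlation in place of distance, Oasl2 alone was shared (r = 0.9997 over 6 libraries, which fall into 2 groups).

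Markers of FAPs and of other cell types were read beside the IFIT values. Pdgfra and Ly6a, which encodes SCA-1, were present in every library at 126 to 254 and 220 to 678 CPM. Of 7 FAP markers 4 rose (Ly6a, Cd34, Dcn and Lum) and 1, Col1a1, fell, while Pdgfra and Col3a1 did not pass. These shares were 57.1% and 14.3%, against 21.8% and 24.3% of all genes. Of the 4 leukocyte markers tested, 3 rose and 0 fell (75% and 0%, against 21.8% and 24.3% of all genes). Cd68 rose from 1.47 ± 0.350 to 4.81 ± 0.867 CPM and Lyz2 from 1.77 ± 0.288 to 6.06 ± 0.690 CPM. Itgam, the other of these 3, measured 0.0223 ± 0.0387 and 0.631 ± 0.178 CPM. It passed the filter only through senescent libraries, which already fixes that its groups did not overlap. Csf1r measured 6.74 ± 0.573 and 7.56 ± 0.489 CPM and did not pass. Their summed level was 9.78 to 10.3 CPM in control and 18.0 to 20.3 CPM in senescent libraries, Itgam was at 0 in control replicates 2 and 3, and the other 6 leukocyte markers were not analysed here. Endothelial markers summed to 18.0 to 38.4 and 22.2 to 29.2 CPM, with Pecam1 higher, Kdr lower, Tek not past the test and Cdh5 below the filter. The muscle lineage genes Itga7 (higher) and Des (not past the test) summed to 14.3 to 19.3 and 23.4 to 30.2 CPM, and the other 4 muscle markers and 1 endothelial marker were not analysed here. The part of these other cell types in the IFIT difference was not tested.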

How the data were processed

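RNA of 3 control and 3 senescent FAP libraries, made with a stranded mRNA kit, was sequenced by the authors, counted per gene, scaled in edgeR (3.10, in R 3.6.0, build mm10, per the labels) and deposited as CPM. The deposited signal is CPM of the effective library size (scaling factors 0.917 to 0.940 in control and 1.07 to 1.09 in senescent libraries), where the design had assumed plain CPM, and the same test was kept. The aligner, counter, annotation and use of strand are not given in the sources used here. All values (100%, tolerance 0.001) were whole multiples of 1 read. None of the 16894 genes had fewer than 8 reads in more than 3 libraries. A line that named no gene (0.00409% to 0.00699% of reads) was left out. Replicates differed by far more than sampling noise (chi-square per gene 15.1 to 154.5).

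Genes that reached 0.5 CPM in 3 or more libraries entered a limma fit (3.58.1, under R 4.3.3) of log2(CPM + 0.5), with a variance trend, two-sided tests and Benjamini-Hochberg adjustment over all 14776 genes. The fit was also run on simulated counts, with far fewer changed genes than these data, as many up as down and no pairing of replicates. That run therefore does not cover the conditions of these data. The alternatives were other pseudocounts (0.1 and 1), filters (none and 2 CPM) and scalings, no trend, a replicate block, leaving out each library, and edgeR (4.0.16) and DESeq2 (1.42.0) on recovered reads. Libraries with equal replicate numbers deviated together from their group means (correlations 0.537, 0.308 and 0.207). For unequal numbers the correlations ran from −0.357 to 0.153, the latter between control replicate 2 and senescent replicate 3. The numbers were taken to pair the libraries, from the data rather than the labels, while the main fit was unpaired. Intervals of shares are exact binomial and those of CPM values are Poisson, at 95%. Promoter windows came from RefSeq (GRCm38.p6) and transcripts from GENCODE M21, aligned with Biopython (1.88). All 6 IFIT genes matched by present symbol.

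Named were the 4 members, other IFIT genes, the 3 smallest p-values of each list, markers and locus neighbours in full, and the 5 genes nearest to the members. Irf5, Irf9, Isg20, Mb21d1, Tmem173 and Cmtr1 were named beyond this rule. A gene that this rule selects is counted but not reported here. The members and lists were chosen with earlier results of these data known. Lists are described by counts and medians only.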

Additional observations from a re-analysis of the deposited data

How the results depend on the processing

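No IFIT member changed direction in any alternative. Ifit2 stayed between 1.43 and 1.75. The log2 fold changes of Ifit1, Ifit3 and I830012O16Rik were 4.64, 4.73 and 4.12 with a pseudocount of 0.1, 4.06, 4.15 and 2.75 with a pseudocount of 1, 4.53, 4.63 and 3.46 with library totals, 4.75, 4.84 and 4.45 with edgeR, and 4.76, 4.86 and 4.47 with DESeq2. The count models add no pseudocount of 0.5, and low control values give the pseudocount its weight.

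With library totals 5056 genes were higher and 1933 lower, and 9 genes of the lists were lower. Under the rule of p under 0.01, unadjusted, and a change past 1 in log2, 1024 genes were higher, 576 lower, and 1 gene of the lists was lower against 23. Of those 23, 11 were eIF3 subunits. The list counts here and below pool the interferon, cap and eIF3 lists and show only how far the number of calls moved. The share of each list beside that of all genes is given above. Of the 5 nearest genes, 3 were shared with a pseudocount of 1 and 1 with Pearson's correlation.

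Leaving out 1 library at a time gave 4.28 to 4.43 for Ifit1, 1.43 to 1.63 for Ifit2, 4.34 to 4.53 for Ifit3 and 3.28 to 3.34 for I830012O16Rik. It gave 2130 (without senescent replicate 2) to 3405 genes higher, 2416 to 3875 lower, 55 to 60 list genes higher and 17 to 29 lower, and a difference in the Ifit3b share of −4.79 to −2.49 percentage points. With the replicate number as a block, 3576 genes were higher and 3947 lower, with 62 and 25 list genes. The cell type markers were not followed through the alternatives. Among the other genes named by the rule, no call changed with the block. Of 542 values of the 34 genes named by the rule beside the members and markers, 532 kept their direction and call. The other 10, for Ifnar1, Ncbp1, Eif4e2, Il10rb and Lipa, kept their direction and lost the call, among them Lipa without the variance trend (adjusted p = 0.0746). The 34 genes include Ifit1bl1, Ifit1bl2 and Ces2e, which passed the filter only through senescent libraries. Calls kept by these genes are therefore no support. Of the 6 genes named beyond the rule, with 16 alternatives each, Irf5 and Isg20 lost the call in 7 each and Cmtr1 in 2.

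Control values of 17 to 21 reads limit the precision for I830012O16Rik, and the split of reads between it and Ifit3 cannot be checked from counts. Nothing separates the effect of etoposide from senescence.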
